A study of Homo sapiens with 17 samples.

Results

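The 10 genes described here write and read histone H3 lysine 9 (H3K9) methylation or silence retroelements through it: TRIM28, SETDB1, ATF7IP, MORC2, TASOR, MPHOSPH8, PPHLN1, EHMT2, SUV39H1 and CBX5. They were taken by name for this known function, when earlier results of these data were known, by a rule that uses no measured value. They are 10 of 63187 genes in the RNA count table. Of 58372 regions of open chromatin with counts, 12 carry 1 of these names in the authors' annotation, and they belong to 7 of the genes. The cells were HepG2, a human liver carcinoma line labelled wild type, grown for 4 days with 0, 2 or 10 µM 5-azacytidine, a nucleoside drug that, once in DNA, binds DNA methyltransferases irreversibly. All groups shared the line and the daily change of medium, and the 0 µM cells served as the control. RNA was sequenced in 9 libraries, 3 at each of 0, 2 and 10 µM. Open chromatin was measured by ATAC-seq, which reads where a transposase can insert into DNA. Of its 8 libraries 3 were from cells at 0 µM, 3 from 2 µM and 2 from 10 µM. HepG2 is 1 tumour-derived line. The labels call the replicates biological but do not say from which cultures they came. The p-values therefore measure the spread between these libraries, and how much of it is technical is not known.

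Trimethylated H3K9 marks compact chromatin that keeps most retroelements silent, and DNA methylation often lies on the same sequences. KRAB zinc finger proteins bind retroelements and recruit TRIM28, a scaffold that brings in the methyltransferase SETDB1, which ATF7IP stabilises in the nucleus. The HUSH complex of TASOR, MPHOSPH8 and PPHLN1 works with MORC2 and SETDB1 on transcribed, intron-less elements such as young LINE-1 copies. SUV39H1 trimethylates H3K9 in heterochromatin near centromeres, EHMT2 (G9a) adds mono- and dimethylation in euchromatin, and CBX5 (HP1α) binds the methylated tail.

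The start-site sequences of 6 of the genes are given because the RNA or the start-site peak changed at 10 against 0 µM. Each is 300 bases from RefSeq (GRCh38.p14), 250 before and 50 after a start, read on the strand of the gene. Where RefSeq has several windows, the one shown is the most upstream that overlaps an ATAC peak. CG dinucleotides, the sites of DNA methylation, are in capitals. The windows lie at chr1:150926013-150926312 (plus strand) for SETDB1, chr3:56683216-56683515 (minus) for TASOR, chr12:42325917-42326216 (plus) for PPHLN1, chr6:31897649-31897948 (minus) for EHMT2, chrX:48696484-48696783 (plus) for SUV39H1 and chr12:54280073-54280372 (minus) for CBX5.
SETDB1: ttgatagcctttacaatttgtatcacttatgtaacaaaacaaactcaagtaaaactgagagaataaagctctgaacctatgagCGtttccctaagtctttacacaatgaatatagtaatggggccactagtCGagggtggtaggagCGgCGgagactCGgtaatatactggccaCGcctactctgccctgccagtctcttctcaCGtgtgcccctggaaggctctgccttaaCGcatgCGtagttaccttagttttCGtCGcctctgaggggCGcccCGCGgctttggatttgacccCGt
TASOR: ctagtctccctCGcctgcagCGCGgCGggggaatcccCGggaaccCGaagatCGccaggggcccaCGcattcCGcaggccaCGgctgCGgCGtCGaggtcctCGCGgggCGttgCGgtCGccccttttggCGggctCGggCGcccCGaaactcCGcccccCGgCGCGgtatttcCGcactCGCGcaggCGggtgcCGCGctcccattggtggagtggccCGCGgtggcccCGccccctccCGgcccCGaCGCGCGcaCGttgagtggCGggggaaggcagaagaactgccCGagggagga
PPHLN1: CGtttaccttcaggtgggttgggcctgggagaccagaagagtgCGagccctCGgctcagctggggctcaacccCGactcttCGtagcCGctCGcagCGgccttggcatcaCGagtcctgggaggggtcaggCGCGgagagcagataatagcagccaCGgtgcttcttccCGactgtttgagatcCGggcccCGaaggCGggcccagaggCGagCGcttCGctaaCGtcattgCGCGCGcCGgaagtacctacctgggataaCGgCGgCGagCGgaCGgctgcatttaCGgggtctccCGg
EHMT2: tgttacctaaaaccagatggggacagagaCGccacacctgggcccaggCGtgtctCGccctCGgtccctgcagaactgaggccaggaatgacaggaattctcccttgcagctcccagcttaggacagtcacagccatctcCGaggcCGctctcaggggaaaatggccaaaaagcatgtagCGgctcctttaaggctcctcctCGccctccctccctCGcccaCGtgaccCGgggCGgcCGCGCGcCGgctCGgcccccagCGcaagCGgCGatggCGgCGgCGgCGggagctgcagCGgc
SUV39H1: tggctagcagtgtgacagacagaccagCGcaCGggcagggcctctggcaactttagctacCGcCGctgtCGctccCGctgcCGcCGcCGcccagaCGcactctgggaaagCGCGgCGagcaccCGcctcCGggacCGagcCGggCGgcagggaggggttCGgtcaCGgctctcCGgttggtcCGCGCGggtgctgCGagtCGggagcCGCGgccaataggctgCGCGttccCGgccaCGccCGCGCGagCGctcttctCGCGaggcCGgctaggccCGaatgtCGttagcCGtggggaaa
CBX5: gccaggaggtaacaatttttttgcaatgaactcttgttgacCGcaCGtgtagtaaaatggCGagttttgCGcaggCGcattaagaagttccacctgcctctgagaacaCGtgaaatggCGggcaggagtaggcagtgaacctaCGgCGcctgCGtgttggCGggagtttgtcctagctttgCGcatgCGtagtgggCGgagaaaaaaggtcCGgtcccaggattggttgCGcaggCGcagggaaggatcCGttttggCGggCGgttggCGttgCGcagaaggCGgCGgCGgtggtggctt
The SETDB1 window held 15 CG dinucleotides, the CBX5 and EHMT2 windows 25 each, the PPHLN1 window 31, the SUV39H1 window 42 and the TASOR window 43, against a median of 14 over 35116 RefSeq windows of the same length (quartiles 4 and 28). A count as high as that of TASOR was reached by 4.98% of all windows, and one as high as that of SETDB1 by 48.9%. RefSeq windows were found for 9 of the 10 genes, 21 in all. Other windows of the same genes differ: a second SETDB1 window held 22, a second SUV39H1 window with no peak 7, a pair at a later CBX5 start 6 and 4, and a later TASOR start 1. The printed windows of SETDB1, TASOR, PPHLN1, EHMT2 and SUV39H1 lie whole within an ATAC peak of the same gene, while the CBX5 window overlaps only the neighbouring peak at the HNRNPA1 start, by 25 bases. Motifs were searched as exact strings on both strands, and variants of them were not. The E2F strings TTTCCCGC and TTTGGCGC and the NRF1 string occurred in none of the 21 windows and in 1.63%, 0.652% and 1.24% of all windows. E2F or NRF1 sites of another sequence are therefore not excluded in any window, that of CBX5 included. The ETS motif CCGGAAG occurred in the printed PPHLN1 window, in the second SETDB1 window and in 10.3% of all. CCAAT occurred in the printed TASOR, SUV39H1 and CBX5 windows and in 34.6% of all, and GGGCGG in these 3 and the EHMT2 window and in 45.0% of all. None of these motifs contains another, and DNA methylation was not measured in these libraries.

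RNA libraries held 35553052 to 46430168 counted reads and ATAC libraries 2896671 to 7864321 reads in peaks. Levels are given as CPM, counts scaled to a common library size, and compare libraries for 1 gene, not genes of different length. A gene or peak is said to have risen or fallen where the adjusted p of edgeR's quasi-likelihood test was under 0.05, and all adjusted p below are from that test unless another is named. All 8 markers of hepatocytes fell at 10 against 0 µM, with a summed level of 1218 to 2000 CPM at 10 µM and 33936 to 55823 CPM at 0 µM, the label of the cells being hepatocyte. Of 8 markers of leukocytes, fibroblasts and endothelium 3 passed the filter on low counts. The summed level of all 8 was 0.788 to 1.07 CPM at 10 µM and 5.79 to 24.9 CPM at 0 µM. PDGFRB alone had 22.8 CPM in 0 µM replicate 3. PTPRC, the defining leukocyte marker, had no read in any library. All 14 listed genes of S phase and proliferation fell at 10 against 0 µM, and their summed level was 624 to 706 CPM at 10 µM and 2507 to 4881 CPM at 0 µM. The call of MCM4 ended with total counts (adjusted p = 0.0591) and without 0 µM replicate 2 (adjusted p = 0.0536) or 10 µM replicate 1 (adjusted p = 0.055). In the replicates numbered 3 mitochondrially encoded RNA made up 0.275% of counts at 0 µM and 0.235% at 2 µM, against 0.0683% to 0.150% in the other 7 libraries. In bulk libraries, fewer cells of a type and less RNA per cell cannot be told apart.

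At 10 against 0 µM, 5 of the 10 genes changed in RNA. The histone-binding protein CBX5 fell most, to 0.200 of the control level, SUV39H1 fell to 0.427, EHMT2 to 0.583 and the HUSH scaffold TASOR to 0.655, while its partner PPHLN1 rose 1.62-fold. TRIM28, SETDB1, ATF7IP, MORC2 and MPHOSPH8 did not pass the test. The background was 48.1% of 18999 tested genes called in either direction, 23% up and 25.1% down, so 5 of 10 is a share near the background. The median log2 change of the 10 genes was -0.19, against -0.016 over all genes tested. In 7 of the 10 genes the 10 and 0 µM libraries did not overlap, as in 58.9% of all genes.

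**Figure D1:**
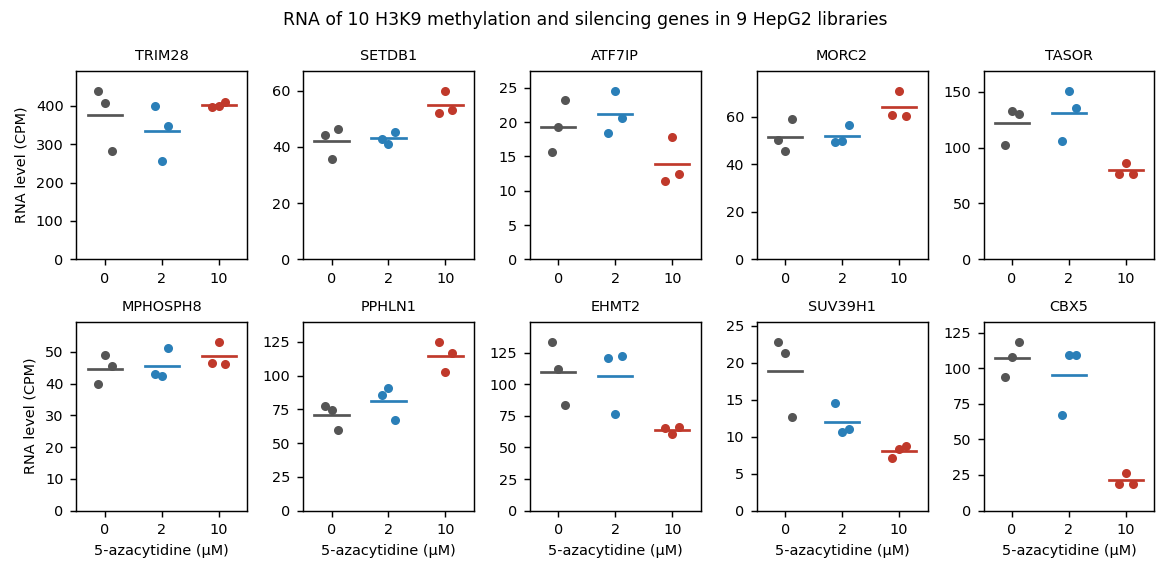
RNA level in CPM (vertical axes, from 0) of each of the 10 genes against the 5-azacytidine dose in µM, with 1 point per library and a bar at the mean of 3. The 10 µM points of CBX5, SUV39H1, EHMT2 and TASOR lie below, and those of PPHLN1 above, every 0 µM point.

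Among the methyltransferases, SUV39H1 had 22.8, 21.3 and 12.6 CPM at 0 µM, 14.6, 10.6 and 11.0 CPM at 2 µM and 7.13, 8.32 and 8.78 CPM at 10 µM. Every 10 µM library was below every other library, and replicate 3 was the low one at 0 µM. The fall at 10 against 0 µM was -1.23 ± 0.260 on the log2 scale (± SE, n = 3 per dose, adjusted p = 0.00175), and it kept its call under every alternative run. EHMT2 had 134, 112 and 83.8 CPM at 0 µM, 121, 76.9 and 123 CPM at 2 µM and 65.8, 60.4 and 65.9 CPM at 10 µM. The 10 µM libraries lay close together below all others, and the spread was wide at both lower doses. The log2 change was -0.78 ± 0.222 (n = 3 per dose, adjusted p = 0.0112). This call ended on leaving out 0 µM replicate 1 (adjusted p = 0.053) or 10 µM replicate 2 (adjusted p = 0.0517), and with scaling by total counts (adjusted p = 0.0686).

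SETDB1 had 44.1, 35.8 and 46.4 CPM at 0 µM, 42.9, 40.9 and 45.2 CPM at 2 µM and 52.2, 59.9 and 53.0 CPM at 10 µM. Its 10 µM libraries were above all others, but the difference of 0.39 ± 0.172 (log2) did not pass the test at 10 against 0 µM (adjusted p = 0.0802). With both replicates numbered 3 (at 0 and 2 µM) left out it passed (0.44, adjusted p = 0.0482). Its partner ATF7IP had 15.6, 19.2 and 23.2 CPM at 0 µM, 18.4, 24.5 and 20.5 CPM at 2 µM and 11.5, 17.8 and 12.4 CPM at 10 µM. The 10 and 0 µM libraries overlapped through 10 µM replicate 2, and the difference was -0.48 ± 0.238 (log2, adjusted p = 0.113). TRIM28, the scaffold that recruits SETDB1, had 439, 408 and 282 CPM at 0 µM, 398, 256 and 347 CPM at 2 µM and 397, 400.4 and 411 CPM at 10 µM. All 10 µM values fell inside the 0 µM range, with a difference of 0.10 ± 0.213 (log2, adjusted p = 0.735).

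CBX5 had 94.0, 108 and 118 CPM at 0 µM, 67.2, 109.6 and 109.6 CPM at 2 µM and 18.8, 26.5 and 18.7 CPM at 10 µM. The highest 10 µM library was under the lowest library of any other dose. The log2 change at 10 against 0 µM was -2.32 ± 0.235 (n = 3 per dose, adjusted p = 6.39e-06), and the call held under every alternative run. Of all genes that passed the filter, the RNA pattern of ABCC6P1 and that of the mitotic spindle gene ASPM were the most like that of CBX5 over the 9 libraries (Pearson r of log2 CPM, both 0.994). The 2 genes most like TASOR were LEPROTL1 and DZIP3 (r = 0.981 and 0.978). Those most like PPHLN1 were GPN1 and USB1 (both 0.987), and those most like EHMT2 were NME3 and CHST14 (0.985 and 0.983). With values at 3 doses such an r rests mainly on the gap between 10 µM and the lower doses.

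Of the 3 HUSH subunits, 1 fell, 1 rose and 1 was not called at 10 against 0 µM. TASOR, the scaffold subunit, had 102, 133 and 129.9 CPM at 0 µM, 106, 151 and 135 CPM at 2 µM and 76.7, 86.0 and 76.7 CPM at 10 µM, every 10 µM value below every other. Its log2 change was -0.61 ± 0.187 (n = 3 per dose, adjusted p = 0.0162). PPHLN1 (periphilin), the subunit that binds nascent transcripts, had 77.8, 74.7 and 59.9 CPM at 0 µM, 85.3, 91.0 and 66.9 CPM at 2 µM and 125, 102 and 117 CPM at 10 µM. All 10 µM libraries were above all others, with a change of 0.70 ± 0.186 (log2, n = 3 per dose, adjusted p = 0.0077) that kept its call under every alternative run. MPHOSPH8 (MPP8), the subunit with an H3K9me3-binding chromodomain, had 39.8, 49.0 and 45.4 CPM at 0 µM, 42.9, 42.2 and 51.2 CPM at 2 µM and 46.5, 53.1 and 46.2 CPM at 10 µM. The doses overlapped and the difference was 0.12 ± 0.174 (log2, adjusted p = 0.6). MORC2, the ATPase that HUSH recruits to compact its targets, had 50.3, 45.6 and 58.9 CPM at 0 µM, 49.4, 49.8 and 56.3 CPM at 2 µM and 60.7, 70.8 and 60.2 CPM at 10 µM. Its 10 µM libraries lay just above the others, and the difference of 0.31 ± 0.173 did not pass (log2, adjusted p = 0.159). The TASOR call ended on leaving out 10 µM replicate 1 (adjusted p = 0.0754) or replicate 3 (adjusted p = 0.077), and with scaling by total counts (adjusted p = 0.15).

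**Figure D2:**
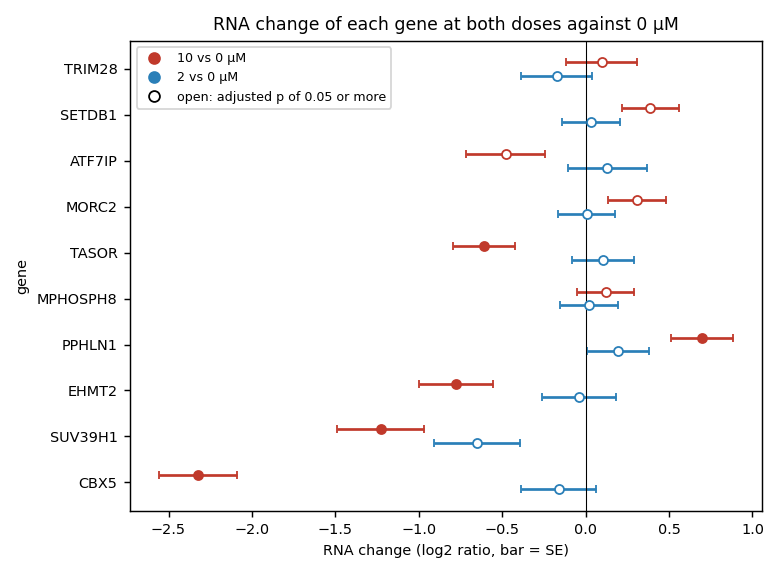
RNA change of each gene (horizontal axis, log2 ratio) at 10 against 0 µM and at 2 against 0 µM, with the SE as bars. Filled points have an adjusted p under 0.05: CBX5, SUV39H1, EHMT2 and TASOR to the left and PPHLN1 to the right, all at 10 µM.

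The scaling of libraries bears on these directions. With scaling by total counts the median log2 change of all genes was 0.237 at 10 against 0 µM and 0.148 at 2 against 0 µM, where the scaling used here gave -0.016 and -0.0097. Under total counts 3 of the 10 genes rose and 2 fell at 10 against 0 µM. Over all 18999 genes tested 9535 were then called, 5788 of them rises. SETDB1 (0.65, adjusted p = 0.00842) and MORC2 (0.57, adjusted p = 0.0183) were then called, and TASOR (-0.36) and EHMT2 (-0.53) were not. Over all genes the share of calls that were rises was 60.7% with total counts and 47.8% with the scaling used here at 10 against 0 µM, 90.6% and 75.2% at 2 against 0 µM, and 50.5% and 43.7% at 10 against 2 µM.

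At 2 against 0 µM none of the 10 genes was called by edgeR's quasi-likelihood test, and none by DESeq2, against 4.28% of all genes by the first (3.22% up and 1.06% down). The libraries of both doses overlapped in all 10 genes, and did not in 19.2% of all genes. The largest difference of the 10 was that of SUV39H1, at -0.65 ± 0.257 (log2, unadjusted p = 0.0247, adjusted p = 0.189), and it was not called. Without 0 µM replicate 3, the low control library of this gene, a fall was called (-0.89, adjusted p = 0.0267), as it was without both replicates numbered 3 (-0.81, adjusted p = 0.0388). The median difference of the 10 genes was 0.014 (log2) and that of all genes -0.0097. The comparison of 10 against 2 µM gave 4 calls of 10, 1 rise and 3 falls, against 38.4% of all genes (16.8% up and 21.6% down). In 8 of the 10 genes the 10 and 2 µM libraries did not overlap, as in 55.7% of all genes. CBX5 fell (-2.16, adjusted p = 1.87e-05), TASOR fell (-0.71, adjusted p = 0.00923), EHMT2 fell (-0.74, adjusted p = 0.0192) and PPHLN1 rose (0.50, adjusted p = 0.048). Leaving out any 10 µM library, or 2 µM replicate 1 or 3, ended that of EHMT2 (adjusted p 0.0582 to 0.0755). The same libraries and 0 µM replicates 1 and 2 ended that of PPHLN1 (adjusted p 0.0578 to 0.21), as did testing without a filter on low counts (adjusted p = 0.0969) and leaving out both replicates numbered 3 (adjusted p = 0.0965). ATF7IP had a difference of -0.61 at 10 against 2 µM (log2, adjusted p = 0.0585), and a fall was called in 7 of 17 alternatives. These were DESeq2 (adjusted p = 0.0464), only the compared doses (adjusted p = 0.0309), the replicate block over all doses or over the compared ones (adjusted p = 0.0309 and 0.0177), and leaving out 0 µM replicate 3 (adjusted p = 0.0304), 10 µM replicate 2 (adjusted p = 0.031) or both replicates numbered 3 (adjusted p = 0.0379). SUV39H1 (-0.58, adjusted p = 0.0934) was called without 0 µM replicate 3 (adjusted p = 0.0298), without both replicates numbered 3 (adjusted p = 0.0242) and with only the compared doses (adjusted p = 0.041). Both comparisons with 0 µM share the control libraries, and both with 10 µM share the treated ones.

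The level of one gene over another within a library does not depend on scaling, and 6 such pairs were set side by side after their values had been seen. PPHLN1 reads were 1.63, 1.19 and 1.52 times the TASOR reads at 10 µM and 0.759, 0.562 and 0.461 times at 0 µM. EHMT1 reads, from the partner with which EHMT2 forms a dimer, were 1.17, 1.51 and 1.22 times the EHMT2 reads at 10 µM and 0.487, 0.507 and 0.640 times at 0 µM. SETDB1 reads were 4.55, 3.37 and 4.28 times the ATF7IP reads at 10 µM and 2.83, 1.86 and 2.00 times at 0 µM. In all 3 pairs the doses did not overlap, with log2 differences of 1.30, 1.25 and 0.88. Each pairs a positive with a negative RNA difference, which makes such a gap likely, and no share over all gene pairs was computed. CBX1 over CBX5 was 5.27, 3.94 and 5.43 at 10 µM and 1.32, 1.27 and 0.608 at 0 µM, a log2 difference of 2.26, and CBX3 over CBX5 differed by 1.36. SUV39H2 over SUV39H1 differed by 0.28 with overlapping libraries (exact two-sided permutation p = 0.3). With 3 libraries against 3 the exact permutation test cannot go below p = 0.1, the value of the other 5 pairs, and 0.12 after Benjamini-Hochberg adjustment over the 6. Since the pairs were chosen after their values were seen, these p-values give no support for a difference. All 6 are ratios of reads, not of molecules, since the genes differ in length.

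Open chromatin at the genes was counted in peaks of 501 bp. Of the 12 peaks, 3 rose and 2 fell at 10 against 0 µM, against 57.5% of 58372 peaks called in either direction (29.9% up and 27.6% down). At 2 against 0 µM 2 rose and 1 fell, against 22.8% (15.5% up and 7.3% down), and at 10 against 2 µM 3 rose and 1 fell, against 55.1% (27.5% up and 27.6% down). The libraries of the compared doses did not overlap in 5 of the 12 at 10 against 0 µM (68.9% of all peaks), in 3 at 2 against 0 µM (38.6%) and in 6 at 10 against 2 µM (67.4%). The median change of the 12 peaks was -0.065 (log2) at 10 against 0 µM, and that of all peaks 0.050. Positions are hg38, and gene parts and distances to a start are the authors' annotation. No peak carries the name of TRIM28, ATF7IP or MORC2. The peak at the start of the neighbour TUG1, chr22:30968826-30969326, overlaps the MORC2 start window by 199 bases. It had 41.7 and 26.1 CPM at 10 µM and 25.0, 30.5 and 31.6 CPM at 0 µM, a difference of 0.24 ± 0.175 (log2, adjusted p = 0.248). Without 10 µM replicate 2 the difference was 0.43.

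The largest changes were at SETDB1 and PPHLN1, away from the start-site peaks. A peak at chr1:150922521-150923021, at -3242 bp from the SETDB1 start and annotated as distal intergenic, lies inside LOC107985204, a lncRNA of the RefSeq table. It had 3.15, 2.72 and 1.89 CPM at 0 µM, 6.53, 5.50 and 5.46 CPM at 2 µM and 14.2 and 13.9 CPM at 10 µM. No dose overlapped another, and the counts behind these values were 10 to 106 reads. The peak rose at 2 against 0 µM (1.15 ± 0.292, log2, adjusted p = 0.00406), at 10 against 2 µM (1.29 ± 0.243, adjusted p = 3.62e-05) and at 10 against 0 µM (2.44 ± 0.262, adjusted p = 1.06e-09). All 3 calls held under every alternative in which the peak was tested. The SETDB1 start-site peak, chr1:150925954-150926454, had 18.2, 15.6 and 16.5 CPM at 0 µM, 13.4, 20.6 and 18.8 CPM at 2 µM and 26.8 and 22.0 CPM at 10 µM. It rose at 10 against 0 µM by 0.56 ± 0.175 (log2, adjusted p = 0.00614) and at 10 against 2 µM by 0.47 ± 0.180 (adjusted p = 0.0284). At 10 against 0 µM this call ended without 0 µM replicate 2 (adjusted p = 0.0531) and without 10 µM replicate 1 (adjusted p = 0.144). At 10 against 2 µM it ended without 2 µM replicate 1 (adjusted p = 0.135) and without 10 µM replicate 1 (adjusted p = 0.244). It also ended with total counts (adjusted p = 0.0754), with DESeq2 (adjusted p = 0.0848), with only the compared doses (adjusted p = 0.0503), with the replicate block over all doses (adjusted p = 0.0586) or the compared ones (adjusted p = 0.0517), and among peaks with a deposited score at or above the median (adjusted p = 0.192).

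**Figure D3:**
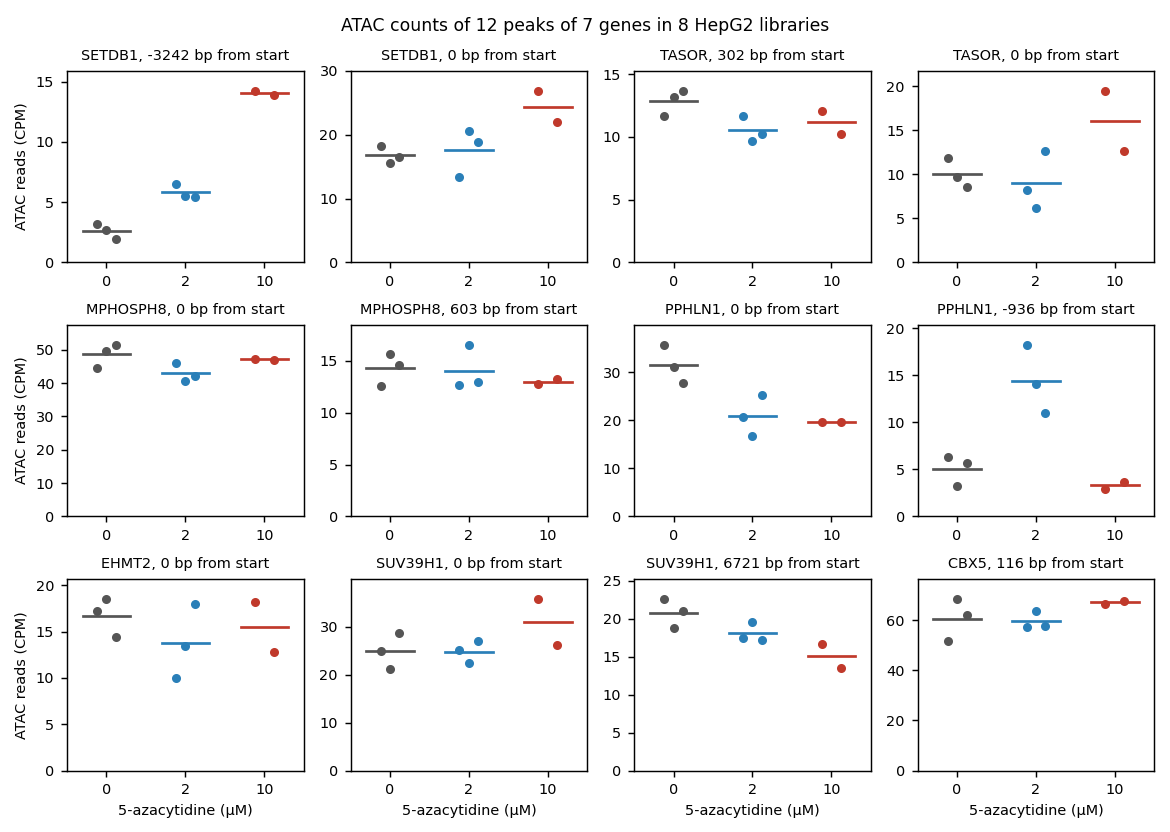
ATAC reads in CPM (vertical axes, from 0) in each of the 12 peaks against the 5-azacytidine dose in µM, with 1 point per library and a bar at the mean (n = 3, 3 and 2). The upstream SETDB1 peak is higher at each higher dose, and the PPHLN1 peak at -936 bp from a start is highest in the 3 libraries of 2 µM.

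The PPHLN1 start-site peak, chr12:42325787-42326287, which covers the PPHLN1 sequence above, had 35.7, 31.1 and 27.8 CPM at 0 µM, 20.6, 16.8 and 25.2 CPM at 2 µM and 19.6 and 19.6 CPM at 10 µM. Every treated library was below every control. It fell at 10 against 0 µM by -0.68 ± 0.172 (log2, adjusted p = 0.000967) and at 2 against 0 µM by -0.54 ± 0.157 (adjusted p = 0.0118), the second call ending without 2 µM replicate 2 (-0.42, adjusted p = 0.0926). A second PPHLN1 peak, chr12:42330351-42330851, lies inside the gene, at -936 bp from a later start. It had 6.31, 3.26 and 5.68 CPM at 0 µM, 18.2, 14.1 and 11.0 CPM at 2 µM and 2.95 and 3.70 CPM at 10 µM. The 2 µM libraries stood above both other doses. The peak rose at 2 against 0 µM (1.51 ± 0.255, log2, adjusted p = 5.28e-05) and fell at 10 against 2 µM (-2.09 ± 0.306, adjusted p = 7.94e-07). At 10 against 0 µM the libraries overlapped (-0.58 ± 0.340, adjusted p = 0.15), and without 0 µM replicate 2 the fall was called (-0.91, adjusted p = 0.0219). The RefSeq window at that later start held 3 CG dinucleotides, and no peak overlapped it.

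TASOR had a start-site peak, chr3:56683042-56683542, with 11.9, 9.65 and 8.52 CPM at 0 µM, 8.25, 6.19 and 12.7 CPM at 2 µM and 19.5 and 12.6 CPM at 10 µM. It rose at 10 against 0 µM by 0.73 ± 0.231 (log2, adjusted p = 0.00753) and at 10 against 2 µM by 0.74 ± 0.240 (adjusted p = 0.00935). The 10 µM libraries differed widely. Without 10 µM replicate 1 both calls ended (adjusted p = 0.352 and 0.31), without 0 µM replicate 3 that against 0 µM (adjusted p = 0.0644) and without 2 µM replicate 2 that against 2 µM (adjusted p = 0.0622). A second TASOR peak in exon 1, chr3:56682215-56682715, had a difference of -0.19 ± 0.200 at 10 against 0 µM (log2, adjusted p = 0.426).

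SUV39H1 had 2 peaks. The start-site peak, chrX:48696300-48696800, had 25.0, 21.1 and 28.6 CPM at 0 µM, 25.1, 22.3 and 27.0 CPM at 2 µM and 35.7 and 26.1 CPM at 10 µM. The doses overlapped at 10 µM replicate 2 (0.34 ± 0.167, log2, adjusted p = 0.0831), and without that library a rise was called against 0 µM (0.45, adjusted p = 0.028) and against 2 µM (0.47, adjusted p = 0.0274). The peak at chrX:48713024-48713524, 6721 bp after a start and past the RefSeq end of the gene, had 22.6, 18.8 and 21.0 CPM at 0 µM, 17.5, 19.6 and 17.2 CPM at 2 µM and 16.6 and 13.5 CPM at 10 µM. It fell at 10 against 0 µM (-0.43 ± 0.175, adjusted p = 0.034), a call that ended without 0 µM replicate 1 (adjusted p = 0.0562) or 10 µM replicate 2 (adjusted p = 0.0983). The start-site peak of EHMT2, chr6:31897517-31898017, differed by -0.08 ± 0.204 (adjusted p = 0.758). The CBX5 peak at chr12:54279506-54280006, 116 bp after the start, had 51.7, 68.4 and 62.1 CPM at 0 µM, 57.4, 63.6 and 57.8 CPM at 2 µM and 66.7 and 67.6 CPM at 10 µM. Its difference at 10 against 0 µM was 0.14 ± 0.141 (log2, adjusted p = 0.428), while CBX5 RNA stood at 0.200 of control. The MPHOSPH8 peaks at the start and in intron 1 differed by -0.05 ± 0.140 and -0.15 ± 0.192 (adjusted p = 0.793 and 0.52).

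**Figure D4:**
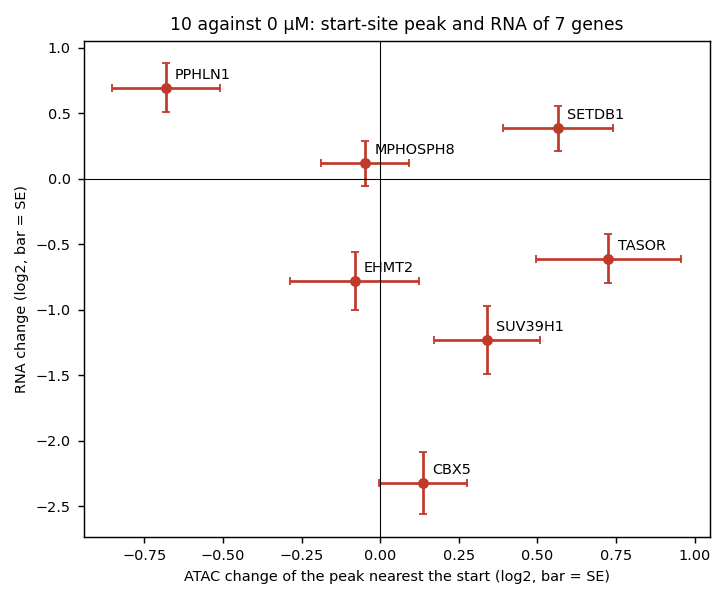
RNA change (vertical axis) against the change of the ATAC peak nearest the start (horizontal axis) for the 7 genes with a peak, both as log2 ratios of 10 against 0 µM with SE bars. PPHLN1 lies upper left, with RNA 0.70 and peak -0.68, and TASOR lower right, with RNA -0.61 and peak 0.73.

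Set side by side at 10 against 0 µM, RNA and start-site peak had opposite signs in both genes where each was called. The share of such opposite pairs over all genes was not computed, so nothing particular to these genes is read from the count. PPHLN1 RNA rose where its peak fell, and TASOR RNA fell where its peak rose, the TASOR calls resting on single libraries as given above. The SETDB1 start-site peak rose with an RNA difference of the same sign that was not called. SUV39H1 and EHMT2 RNA fell with start-site peaks that were not called. CBX5 RNA fell with a peak 116 bp after its start that was not called, and its start window overlaps only the HNRNPA1 peak given below. Several neighbours lie close enough to share reads or peaks. The end of ZCRB1 nearest PPHLN1, chr12:42326094, lies within the PPHLN1 start-site peak, so that peak cannot be assigned to PPHLN1 alone. ZCRB1 RNA was not called at 10 against 0 µM (0.30 ± 0.193, log2, adjusted p = 0.226). HNRNPA1, whose start lies back to back with that of CBX5, fell in RNA at 10 against 0 µM (-1.36 ± 0.183, adjusted p = 6.01e-05), while the peak at its start, chr12:54280348-54280848, rose (0.51 ± 0.155, adjusted p = 0.00573), a call that ended without 0 µM replicate 1 (adjusted p = 0.0546) or 10 µM replicate 1 (adjusted p = 0.194). On both sides of EHMT2 the neighbours fell, SLC44A4 by -3.18 ± 0.292 (log2, adjusted p = 3.04e-06) and C2 by -3.30 ± 0.364 (adjusted p = 1.26e-05). The end of C2 nearest EHMT2, chr6:31897783, lies within the EHMT2 start-site peak. A peak named for the antisense gene EHMT2-AS1, chr6:31877467-31877967, had 17.8 and 21.5 CPM at 10 µM and 53.4, 45.5 and 52.8 CPM at 0 µM (-1.37 ± 0.161, adjusted p = 6.23e-09). TASOR overlaps CCDC66 (0.50, adjusted p = 0.0951) and MPHOSPH8 overlaps PSPC1 (0.21, adjusted p = 0.568). The sources used here do not say whether counting used the strand, and reads in such overlaps cannot be told apart.

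Other genes of the pathway were taken from lists chosen by function. Beside each count stands the background of 23% of all tested genes that rose and 25.1% that fell at 10 against 0 µM, with a median of -0.016 (log2), and nothing particular to a list is read from it. Of 7 other H3K9 methyltransferases and partners, 4 rose and 1 fell at 10 against 0 µM, against 23% and 25.1% of all genes, with a median change of 0.50 (log2). WIZ, a zinc finger partner of the EHMT1-EHMT2 dimer, averaged 41.7 ± 4.42 CPM at 10 µM and 14.6 ± 3.33 CPM at 0 µM (SD, n = 3 each, change 1.51 ± 0.252, adjusted p = 0.000319). PRDM2 (RIZ1) rose (1.27, adjusted p = 0.000468), as did the WIZ partner ZNF644 (0.66, adjusted p = 0.0139) and EHMT1 (0.50, adjusted p = 0.0356). SUV39H2, the paralog of SUV39H1, fell (-0.98, adjusted p = 0.0141). The EHMT1 call ended on leaving out any 10 µM library or 0 µM replicate 2 or 3 (adjusted p 0.0625 to 0.118), with the replicate block over the compared doses (adjusted p = 0.0728) and with no filter on low counts (adjusted p = 0.0785). That of ZNF644 ended without 0 µM replicate 1 (adjusted p = 0.0645) or 10 µM replicate 2 (adjusted p = 0.0535). That of SUV39H2 ended without 0 µM replicate 2 (adjusted p = 0.0755), 10 µM replicate 1 (adjusted p = 0.0595) or replicate 3 (adjusted p = 0.0665), and with total counts (-0.74, adjusted p = 0.0605).

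Of 7 other HP1 proteins and partners, 4 fell and none rose, against 25.1% and 23% of all genes, with a median of -1.02 (log2). LBR, a nuclear envelope protein that binds HP1, averaged 65.4 ± 3.68 CPM at 10 µM and 201 ± 32.2 CPM at 0 µM (SD, n = 3 each, change -1.62 ± 0.182, adjusted p = 1.44e-05). CHAF1A, the HP1-binding subunit of the replication-coupled histone chaperone CAF-1, fell (-1.87, adjusted p = 0.000163), as did its partner CHAF1B (-1.08, adjusted p = 0.00409). CBX3 (HP1γ) fell (-1.02, adjusted p = 0.0024), and CBX1 (HP1β) averaged 102 ± 2.52 CPM at 10 µM and 111 ± 34.5 CPM at 0 µM (-0.13, adjusted p = 0.677). These 4 calls held under every alternative run at 10 against 0 µM. The falls of CBX5, SUV39H1 and these genes stood beside that of the 14 proliferation genes, whose median change was -2.53 (log2), TOP2A having 27.0 ± 8.82 CPM at 10 µM and 768 ± 74.1 CPM at 0 µM. The part of proliferation in these falls was not tested.

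**Figure D5:**
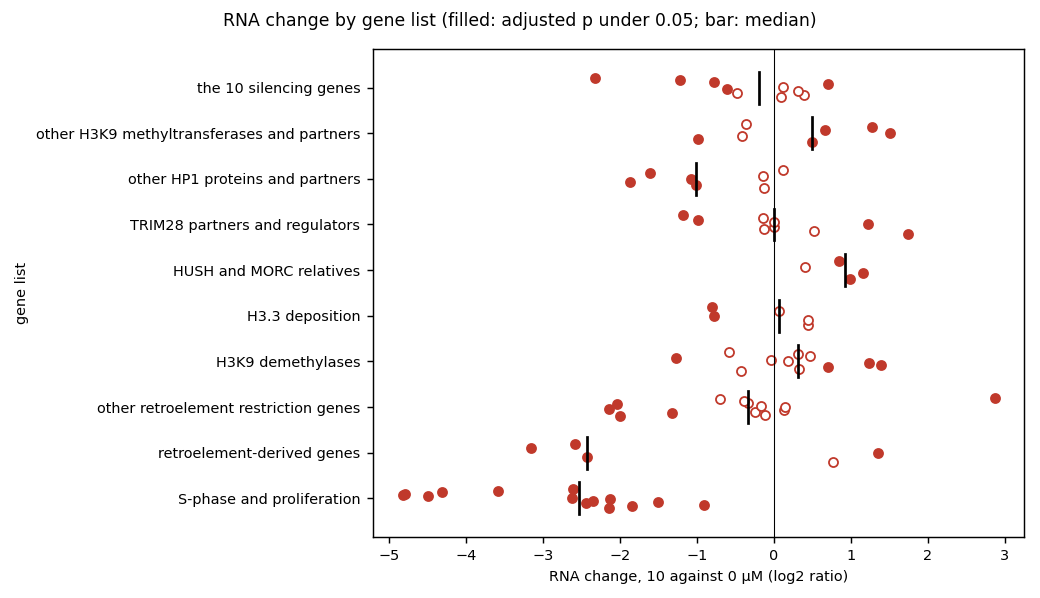
RNA change at 10 against 0 µM (horizontal axis, log2 ratio) of each tested gene, by list, with filled points for an adjusted p under 0.05 and a bar at the median. The 10 silencing genes spread from -2.32 to 0.70, the HUSH and MORC relatives lie from 0.40 to 1.16, and all 14 proliferation genes lie left of 0.

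The relatives of HUSH and MORC2 included 3 rises and no fall among 4 tested of 5 listed, against 23% and 25.1% of all genes, with a median of 0.92 (log2). MORC3 averaged 129.9 ± 15.3 CPM at 10 µM and 58.2 ± 14.5 CPM at 0 µM (SD, n = 3 each, change 1.16, adjusted p = 0.000568). TASOR2, the paralog of TASOR, rose (0.99 ± 0.200, adjusted p = 0.00128) where TASOR itself fell, and RESF1, which binds SETDB1, rose (0.85, adjusted p = 0.00375). Among 9 tested of 10 partners and regulators of TRIM28, 2 rose and 2 fell (23% and 25.1% of all genes). ZNF274, a KRAB zinc finger protein that recruits SETDB1 through TRIM28, averaged 71.6 ± 13.5 CPM at 10 µM and 21.4 ± 2.36 CPM at 0 µM (1.74 ± 0.211, adjusted p = 2.71e-05). CHD3, a remodelling ATPase that binds TRIM28, rose (1.22, adjusted p = 0.00281). SUMO2, the modifier on TRIM28 that SETDB1 recognises, fell (-0.99, adjusted p = 0.000876), as did the SUMO protease SENP7 (-1.19, adjusted p = 0.00928). Of 5 genes of histone H3.3 deposition none rose and 2 fell (25.1% of all genes), H3-3A (-0.78, adjusted p = 0.00455) and the chaperone HIRA (-0.81, adjusted p = 0.00423), while ATRX and DAXX were at 0.44 each (adjusted p = 0.153 and 0.14). With total counts both ATRX (0.70, adjusted p = 0.0263) and DAXX (0.69, adjusted p = 0.0294) rose, where 60.7% of all calls were rises. Without 0 µM replicate 3 ATRX also rose (0.79, adjusted p = 0.00334). HIRA was also among the 2 genes most like SUV39H1 over the 9 libraries (r = 0.980, with TRAF4 at 0.982).

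Of 11 H3K9 demethylases, 3 rose and 1 fell at 10 against 0 µM, against 23% and 25.1% of all genes, with a median of 0.31 (log2). KDM4A averaged 50.2 ± 4.04 CPM at 10 µM and 21.2 ± 1.75 CPM at 0 µM (SD, n = 3 each, change 1.24, adjusted p = 0.000111). JMJD1C (1.39, adjusted p = 0.00187) and KDM3B (0.70, adjusted p = 0.00372) rose, and KDM4D, at 1.14 ± 0.267 CPM at 10 µM and 2.75 ± 0.619 CPM at 0 µM, fell (-1.27, adjusted p = 0.00599). Without both replicates numbered 3 (at 0 and 2 µM) 6 of the demethylases rose and 2 fell. In that setting 9957 of all 19257 genes tested were called, 4953 of them rises. Among 13 tested of 14 other genes that restrict retroelements, 1 rose and 4 fell (23% and 25.1% of all genes). TEX15, a germ-cell protein that acts in transposon silencing in mice, averaged 16.7 ± 4.53 CPM at 10 µM and 2.28 ± 0.907 CPM at 0 µM (2.87 ± 0.500, adjusted p = 0.000444). HELLS, a remodelling ATPase needed for DNA methylation of repeats in mice, fell (-2.00, adjusted p = 6.17e-05), as did RNASEH2A (-2.15, adjusted p = 4.49e-05), the LINE-1 inhibitor MOV10 (-1.33, adjusted p = 0.000173) and APOBEC3B (-2.04, adjusted p = 0.000341).

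Genes that derive from retroelements, the kind of sequence this machinery silences, gave 1 rise and 3 falls among 5 tested of 11 listed (23% and 25.1% of all genes). PEG10, from a retrotransposon gag-pol gene, averaged 463 ± 76.8 CPM at 10 µM (SD, n = 3) and had 2337, 2117 and 3916 CPM in the 3 libraries of 0 µM (-2.59 ± 0.296, adjusted p = 1.66e-05). ERV3-1 fell (-2.43, adjusted p = 7.15e-05), and ERVK3-1 rose, at 2.99 ± 0.326 CPM at 10 µM and 1.18 ± 0.531 CPM at 0 µM (1.35, adjusted p = 0.0129). ERVH48-1 had 0.0718, 0.0769 and 0.0607 CPM at 10 µM and 0.0313, 0.129 and 1.77 CPM at 0 µM. Its fall (-3.17, adjusted p = 0.0274) rested on 0 µM replicate 3, without which it was -0.26 (adjusted p = 0.825). The call also ended on leaving out any 10 µM library (adjusted p 0.0655 to 0.0736) and with the replicate block over all doses (adjusted p = 0.0598). These lists name single genes, and retroelement copies across the genome were not analysed here. Of the lists of the pathway, 2 genes were called at 2 against 0 µM, where 4.28% of all genes were. TEX15 rose (2.23 ± 0.491, adjusted p = 0.0228) and PEG10 fell (-1.29 ± 0.284, adjusted p = 0.0228). The TEX15 call ended without 0 µM replicate 1 or 2 µM replicate 1 or 2 (adjusted p 0.0676 to 0.119), and that of PEG10 without 2 µM replicate 1 or 2 (adjusted p = 0.11 and 0.106). With only the compared doses both calls ended (adjusted p = 0.0529 and 0.0576), and with the replicate block over these doses, taken as paired, both held (adjusted p = 0.0152 and 0.0109). The block called 1 further gene of these lists, MORC4, a relative of MORC2, with a rise of 0.74 (log2, adjusted p = 0.0428, against 0.108 without the block).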

How the data were processed

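Raw read counts per gene in 9 RNA libraries and per peak in 8 ATAC libraries were used as the authors deposited them, with 1 of 3 doses per library from the labels. The genome was hg38 and the tools named were DiffBind 3.12.0, DESeq2 1.42.1, HTSeq 2.0.4 and HISAT2 2.2.1, per the submitters' processing notes. The role of each tool, the use of strand and the peak caller are not given in the sources used here. Peak scores, deposited by the authors on an unstated scale, entered 1 alternative alone. The authors' deposited normalized table, a signal of counts over 1 size factor per library, served to check columns. Its 10 µM replicates 2 and 3 are exchanged against the raw counts, as constant ratios showed, and the raw table's names were kept.

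Of 63187 gene identifiers 62666 matched a symbol. Of 63621 consensus peaks 58372 have counts and were tested. Counts were tested with the quasi-likelihood F-test of edgeR 4.0.16 in R 4.3.3. Each assay had 1 fit of all its libraries with 1 mean for each dose, TMM scaling and the package's filter on low counts, which left 18999 genes with all 10 members and all peaks. P-values were adjusted by Benjamini-Hochberg over all features of a comparison, and each SE was taken as the size of the log2 change divided by the root of its F. The procedure was run on simulated counts in which few features changed, equally up and down. In these data many features changed, so that run does not bear on the choice of scaling. Alternatives were other scalings, DESeq2 1.42.0, other filters, only the compared doses, a replicate block and each library left out.

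The labels call the replicates biological and number them 1 to 3. Deviations of same-numbered RNA libraries at 0 and 2 µM correlated across genes (r = 0.194, 0.264 and 0.283), so these numbers were taken as paired. Pairs with 10 µM (r from -0.065 to 0.056) and ATAC pairs (r from -0.224 to 0.134) were not. The 2 ATAC libraries at 10 µM mirror each other around their mean, so correlations with them differ only in sign and say little on pairing. The members and the 11 lists of 100 genes were chosen with earlier results of these data known. By rule every member and its peaks were named, up to 3 genes per list by adjusted p at 10 against 0 µM and up to 2 at 2 against 0 µM, and the 2 genes most like a called member. Further list genes, named because a list had few calls, the neighbouring genes and their peaks were chosen after their values were seen.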

Additional observations from a re-analysis of the deposited data

How the results depend on the processing

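In all, 510 RNA and 561 ATAC values of the 10 genes and 12 peaks were recomputed. None reversed a call, 475 and 536 kept their side of the threshold, and 20 and 22 lost a call. A further 19 and 26 changed sign with neither value called, between -0.0942 and 0.154 and between -0.164 and 0.157 (log2). For list genes, neighbours and their peaks, alternatives were chosen after seeing the data: of 3007 RNA and 282 ATAC values none reversed. Genes called were 5 at 10 against 0 µM in RNA, and this count stayed within 1.5 times under all alternatives. At 2 against 0 µM it was 0, and 1 without both replicates numbered 3 (at 0 and 2 µM), with a range of 0 to 1 on leaving out each library. At 10 against 2 µM it was 4, with a range of 2 to 6, and 2 without 2 µM replicate 1 or 3 or 10 µM replicate 1 or 3. Peaks called were 5 at 10 against 0 µM, and 3 with DESeq2 or with a deposited score at or above the median, with a range of 3 to 5 on leaving out each library. The lowest came without 10 µM replicate 1. The score filter gave 1 at 2 against 0 µM (3 as reported) and 0 at 10 against 2 µM (4 as reported), where the range on leaving out was 2 to 5 and the 2 came without 10 µM replicate 1. It leaves fewer peaks to test and drops 5 of the 12. The replicate block over the compared doses left 2 peak calls at 10 against 0 µM and ended those of the SETDB1 (adjusted p = 0.101) and TASOR (adjusted p = 0.13) start-site peaks and the distal SUV39H1 peak (adjusted p = 0.0796). In the paired RNA comparison of 2 against 0 µM the block changed no call of the 10 genes. With DESeq2 the TASOR start-site peak (adjusted p = 0.0652) and the distal SUV39H1 peak (adjusted p = 0.0587) were not called. Of all genes, 813 were called at 2 against 0 µM, 1521 with DESeq2, 409 with only the compared doses, 1703 without a filter, 2170 with replicates 3 left out and 276 to 1409 on leaving out each library. Of all peaks 13304 were called there and 8704 with DESeq2. The cause of these differences was not tested. With 3 libraries a dose, and 2 for ATAC at 10 µM, 1 library decides several values, and the low read numbers of single peaks limit what can be told apart.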
